A study of Rattus norvegicus with 2 samples.

Results

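DNA repair and recombination genes were taken as all genes whose symbol in the platform annotation starts with Fanc, Xrcc, Ercc, Msh, Mlh or Parp and a family letter or number, is Brca1 or Brca2, or belongs to the numbered Rad families of recombination and checkpoint genes. The rule itself uses names and no measured value, but it was set with earlier results of these data known. It gave 49 of the 16592 named genes. Their levels were measured in neonatal rat ventricular myocytes, the beating muscle cells of the newborn rat heart in culture, isolated from pups of 1 to 2 days. An adenovirus delivered a short hairpin RNA (shRNA) against Mef2d, a MEF2 family transcription factor of muscle, or against lacZ, a bacterial gene, as the negative control. The cells recovered for 24 hours in serum before they were moved to low serum medium, and RNA was harvested 3 days after transduction. Each condition was measured on 1 Affymetrix array. Both groups share the cell source, the medium and the viral vector, and they differ in the target of the shRNA. The series' design text describes each array as RNA pooled from 6 biological replicates, whereas the extraction protocol speaks of 3 replicates per condition, and the sources used here do not resolve this.

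With 1 array per condition, no value below has a replicate error and no difference has a test, so precision is limited by the number of arrays. Levels are log2 values made with robust multi-array averaging (RMA), and a difference is always the value on the Mef2d-labelled array less that on the lacZ-labelled array, on that log2 scale. Named genes whose mean level over both arrays was below the 30th percentile, a log2 level of 4.85, were set apart as dim, which left 11614 genes. Counts used a pair of fold thresholds, 1.3-fold (0.38 on the log2 scale) and 1.5-fold (0.58). As a yardstick for the scatter between the arrays, each difference was also divided by a robust SD, the scaled median absolute deviation of the differences of genes of similar level. It lay between 0.11 and 0.21 and mixes measurement noise with real differences, so it is not a replicate error.

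The targeted transcript ran against its label. Mef2d had a level of 8.22 on the lacZ-labelled array and 8.94 on the Mef2d-labelled array, a difference of 0.71. The arrays are therefore named only by label, and a swap of the labels would invert each sign given here. Markers of the labelled cell type were bright, as all 9 cardiomyocyte markers were past the level filter, at levels from 9.02 to 12.82 on the lacZ-labelled array. Fibroblast markers were as bright (8 of 8 past the filter). Their median level was 11.58 against 11.27 for cardiomyocyte markers on the lacZ-labelled array, and 11.60 against 11.65 on the other. Passing the filter therefore does not identify the cell type. Of 4 endothelial markers 1 was past it, Tek with a difference of 0.10. The cardiomyocyte differences ran from Myh6 (-0.46) and Tnnt2 (-0.12) to Tnni3 (0.36) and Myh7 (0.39). Among fibroblast markers they ran from Pdgfra (-0.23) and Postn (-0.12) to Thy1 (0.05) and Dcn (0.10). The 3 smooth muscle markers were below 0, with Tagln (-0.22) and Myh11 (-0.21) lowest. In such bulk RNA, fewer cells of a type and less RNA per cell cannot be told apart.

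Cells repair DNA through separate routes that these gene names span. Homologous recombination copies the intact sister chromatid with the help of BRCA1 and BRCA2, and the Fanconi anaemia proteins unhook crosslinked strands ahead of it. End joining ligates broken ends held by the Ku dimer, whereas excision repair and mismatch repair remove damaged or mispaired bases from 1 strand. Recombination and mismatch repair act mostly in cells that replicate their DNA, and cardiac myocytes leave the cell cycle soon after birth. The PARP family, named after the break sensor PARP1, also includes ADP-ribosyltransferases of antiviral defence.

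Most of the repair genes differed little between the arrays. Of the 49 genes 41 were past the level filter, and of these 22 were below 0 and 19 above. That is 53.7% below 0, while of all named genes past the filter 51.7% were below and 48.2% above. The median difference was -0.01, as it was over all 11614 genes (-0.01). No repair gene differed by 1.5-fold in either direction, where the background was 0.844% higher and 0.534% lower. At 1.3-fold, Parp14 and Parp9 were lower (4.88% of the 41, background 2.47%) and Ercc8 was higher (2.44%, background 3.51%). Counts this small lie close to the background. The spread of the repair genes was also that of other genes, since 28 of the 41 (68.3%) lay within 1 robust SD of genes of similar level, compared with 67.6% of all genes.

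**Figure D1:**
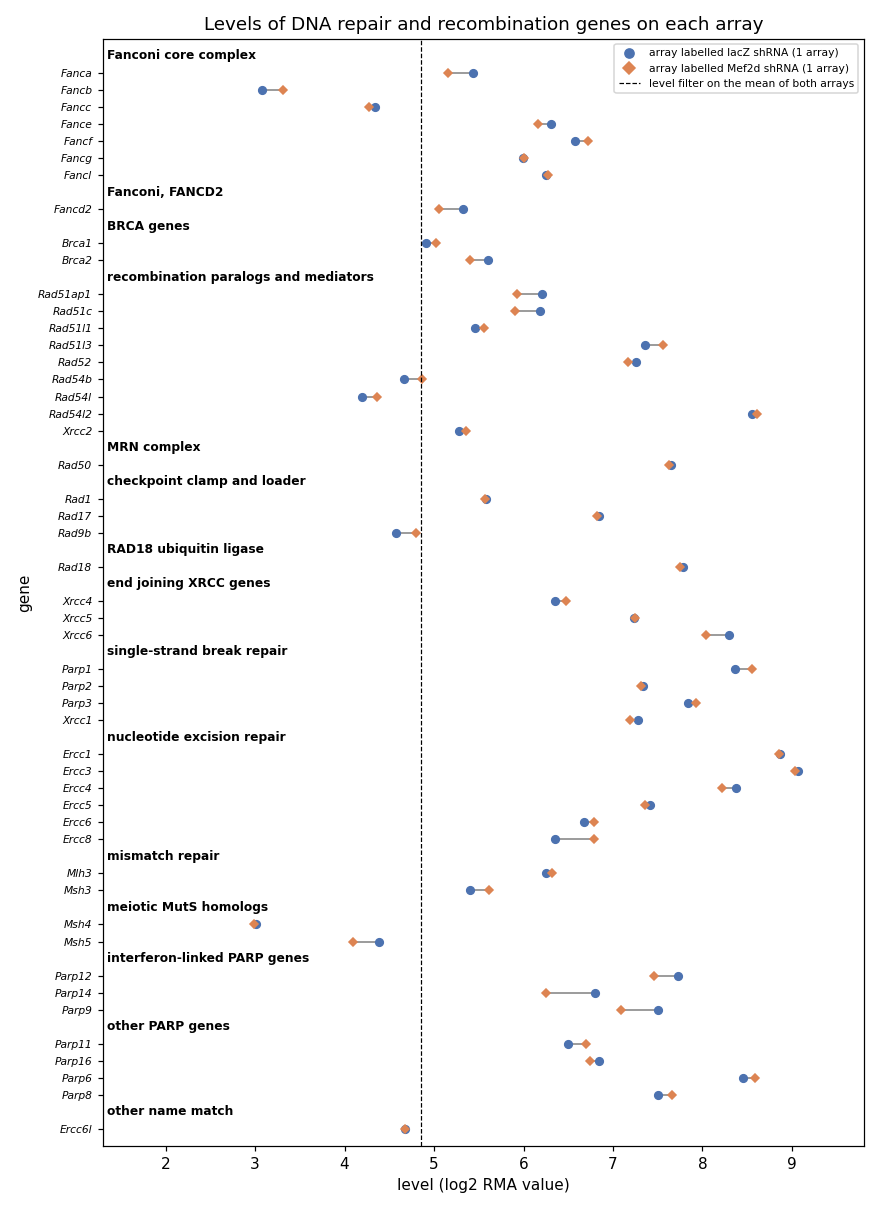
Log2 RMA level of each of the 49 DNA repair and recombination genes on the lacZ-labelled array (circles) and the Mef2d-labelled array (diamonds), by family, with 1 array per condition and no error bars. The longest connecting lines are those of Parp14, Parp9 and Ercc8, and 8 genes lie left of the dashed level filter at 4.85.

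A subgroup of 3 PARP genes, each known to be induced by interferon, included the lowest values among the repair genes. It need not hold every PARP gene that interferon induces. This subgroup (Parp9, Parp12 and Parp14) was drawn up with lower interferon-stimulated genes on the Mef2d-labelled array already known, so its direction is no independent evidence. Parp14, a mono-ADP-ribosyltransferase that shapes interferon and cytokine responses, had a level of 6.79 on the lacZ-labelled array and 6.26 on the other. Its difference of -0.54 (1.45-fold lower) came to -2.90 robust SDs. Of the 11614 genes, 82, Parp14 included, were at least as much lower. Parp9, which works in a complex with the ubiquitin ligase DTX3L, had levels of 7.50 and 7.09. The difference was -0.41 (1.33-fold lower, -2.41 robust SDs). Parp12, a zinc finger protein that restricts viruses, had levels of 7.73 on the lacZ-labelled array and 7.46 on the Mef2d-labelled array. With a difference of -0.27, or -1.47 robust SDs, it did not reach 1.3-fold. All 3 were lower, with a median of -0.41.

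Other interferon-stimulated genes lay on the same side. Of 18 such genes past the filter, 16 were below 0, with a median difference of -0.32, and 8 were at least 1.3-fold lower, where 51.7% of all named genes past the filter were below 0 and 2.47% at least 1.3-fold lower. Mx2 (-0.88) and Isg15 (-0.69) had the largest negative values, while Bst2 (0.06) and Zc3hav1 (0.04) were the only members of that list above 0. Zc3hav1 encodes the antiviral zinc finger protein ZAP, a catalytically inactive relative of PARP12. Leukocyte markers were mixed. The summed unlogged level of the 6 measured markers, which follows the brightest of them, Lyz2, corresponded to 10.13 on the log2 scale on the lacZ-labelled array and 9.97 on the other. Of the 5 past the filter 3 were below 0, Ptprc and Lyz2 at -0.34 each and Cd68 at -0.05. Tyrobp was at 0.24 and Csf1r at 0.01, and the dim Itgam at 0.26. Their median level was 6.75 on the lacZ-labelled array and 6.87 on the Mef2d-labelled array. The part of leukocyte RNA in the PARP differences was not tested.

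The 2 lowest genes are also chromosome neighbours, which was looked up after their values were seen. In the RefSeq annotation of the rat assembly GRCr8, the protein-coding order runs Parp9, Dtx3l, Parp14. Dtx3l, the ubiquitin ligase partner of PARP9, had levels of 6.65 and 6.36 and a difference of -0.29. Dtx3l is also a member of the interferon-stimulated list counted above, so its value is not a separate observation. The annotated start sites of Parp9 and Dtx3l lie 1214 bases apart and point away from each other. The next gene beyond Parp9 was Kpna1, a nuclear import receptor, at 0.19, and the next beyond Parp14 was Hspbap1, at 0.00. Among these 5 adjacent genes, the negative values were those of the 3 that form the cluster. Farther out, Sema5b, an axon guidance gene, was at -0.17, Wdr5b at -0.08 and Fam162a at -0.07, while Slc49a4 was at 0.07. Negative values were thus not confined to the cluster.

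**Figure D2:**
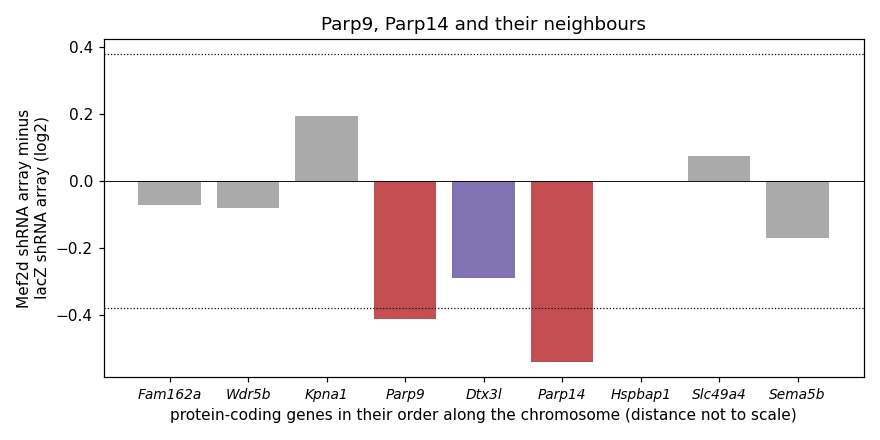
Difference between the arrays (log2, Mef2d-labelled minus lacZ-labelled) for 9 adjacent protein-coding genes in chromosome order, 1 array per condition, with dotted lines at 1.3-fold. The bars of Parp9 (-0.41), Dtx3l (-0.29) and Parp14 (-0.54) stand next to each other, and Hspbap1 has a difference of 0.00, so no bar is visible.

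Promoters were compared for the 44 repair genes with an entry in the RefSeq table (GRCr8, 250 bases before to 50 after the annotated start). The sequences below are those of the lowest PARP genes, shown because they differ in the letters of the interferon response element (GAAA, any 2 bases, then GAAA, searched on both strands). The capitals mark its match. Parp14 lies at chr11:78407884-78408183 on the plus strand, Parp12 at chr4:68850492-68850791 on the minus strand and Parp9 at chr11:78318962-78319261 on the minus strand.
Parp14: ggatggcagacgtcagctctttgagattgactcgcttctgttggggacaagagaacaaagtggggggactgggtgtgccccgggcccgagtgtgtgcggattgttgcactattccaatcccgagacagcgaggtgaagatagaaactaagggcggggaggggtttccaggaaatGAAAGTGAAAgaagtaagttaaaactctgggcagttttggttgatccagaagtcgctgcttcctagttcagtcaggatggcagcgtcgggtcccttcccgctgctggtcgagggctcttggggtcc
Parp12: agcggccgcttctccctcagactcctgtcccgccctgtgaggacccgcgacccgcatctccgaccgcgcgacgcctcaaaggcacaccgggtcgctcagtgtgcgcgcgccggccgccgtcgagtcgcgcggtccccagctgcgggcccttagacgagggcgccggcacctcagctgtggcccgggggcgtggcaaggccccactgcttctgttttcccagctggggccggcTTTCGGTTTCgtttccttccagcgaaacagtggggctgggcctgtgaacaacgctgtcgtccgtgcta
Parp9: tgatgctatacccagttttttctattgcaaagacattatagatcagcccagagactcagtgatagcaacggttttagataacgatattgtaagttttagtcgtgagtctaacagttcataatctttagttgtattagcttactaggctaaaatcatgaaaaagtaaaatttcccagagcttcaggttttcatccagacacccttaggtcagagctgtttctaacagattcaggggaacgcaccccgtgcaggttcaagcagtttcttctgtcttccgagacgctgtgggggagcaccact
The Parp14 match starts at position -76 and the Parp12 match, which reads on the opposite strand, at position -18, counted from the start site as position 1. The window of Parp9 holds none. Of the 44 repair gene promoters 3 held a match (6.82%), the third being that of Ercc5, against 4.12% of the 27457 genes in the table and 3.55% of the named genes on the arrays. A match is a description of letters and not a bound site.

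The remaining PARP genes were small in difference and mostly above 0. Parp1, the sensor of DNA strand breaks, had levels of 8.36 and 8.55, a difference of 0.19. Parp2, its closest partner in break sensing, was level at 7.33 and 7.32. Parp3, which assists end joining, had a difference of 0.09. Xrcc1, the scaffold that PARP1 recruits to broken strands, had levels of 7.27 on the lacZ-labelled array and 7.19 on the other. The mono-ADP-ribosyltransferase genes were mostly above 0, with Parp11 at 0.19, Parp8 at 0.15 and Parp6 at 0.13. Parp16, which sits in the endoplasmic reticulum membrane, was at -0.10, and the median of these 4 was 0.14. None of these 8 genes passed 1.3-fold, and the farthest from genes of similar level was Parp1, at 1.22 robust SDs.

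Recombination and Fanconi genes were spread over both sides of 0 without distinct sets, all under 1.3-fold. Those farthest below 0 included the effector of the Fanconi pathway and Brca2, which encodes a recombination mediator. Fancd2, whose protein is ubiquitylated at stalled forks, had a level of 5.32 on the lacZ-labelled array and 5.05 on the Mef2d-labelled array, a difference of -0.27. Fanca, a core complex subunit, had levels of 5.43 and 5.15, a difference of -0.28. Brca2 had levels of 5.60 and 5.40, a difference of -0.21. Rad51ap1, which stimulates strand pairing, was at -0.28 (6.21 and 5.92). Rad51c, a recombination mediator, was also at -0.28 (6.18 and 5.91). These 5 values came to between -1.29 and -0.85 robust SDs of genes of similar level, inside the band of 2 robust SDs.

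Most of their partners lay near or above 0. Brca1, a ubiquitin ligase subunit that promotes end resection and recombination, had a level of 4.91 on the lacZ-labelled array and 5.02 on the Mef2d-labelled array, a difference of 0.11. Brca1 was barely past the filter of 4.85. Rad51l3, the gene now named Rad51d, was at 0.20 with levels of 7.36 and 7.56. Rad51l1, now Rad51b, was at 0.10, and Xrcc2 at 0.08. These 3 genes encode partners of RAD51C in its complexes, and they did not share the sign of Rad51c. Rad52, the annealing factor, was at -0.09. Rad54l2 matched the name rule at 0.06, but it encodes a helicase that binds the androgen receptor rather than a recombination factor. In the Fanconi core complex Fancf was at 0.14, Fancl, the ubiquitin ligase subunit, at 0.02 and Fancg at 0.02. Fance, which bridges the core to FANCD2, was at -0.14. Over the 5 core complex genes past the filter the median was 0.02. Over the 7 genes of the recombination mediator group (Rad51ap1, Rad51c, Rad51l1, Rad51l3, Rad52, Rad54l2 and Xrcc2) it was 0.06, the value of Rad54l2 itself. That median thus rests on the gene that is not a recombination factor, and the mean of the 7 was -0.03.

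These small values stood beside far larger ones in genes of the G1/S transition, which many repair genes accompany in cycling cells. All 14 genes of a replication reference list past the filter were below 0, with a median of -0.63, where 51.7% of all named genes were below 0. Mcm6, a helicase subunit, was lowest at -1.33, followed by Mcm3 at -0.99. The smallest differences in that list were those of Pola1 (-0.12) and Tyms (-0.21). A G2/M list of 12 genes had a median of 0.16, from Mki67 at -0.21 and Kif11 at -0.05 to Bub1 at 0.59 and Ndc80 at 0.89. The repair gene median of -0.01 lay between these medians. The part of the cell cycle in the Fancd2, Brca2 and Rad51c values was not tested. The replication and mitosis lists were chosen with their directions known.

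**Figure D3:**
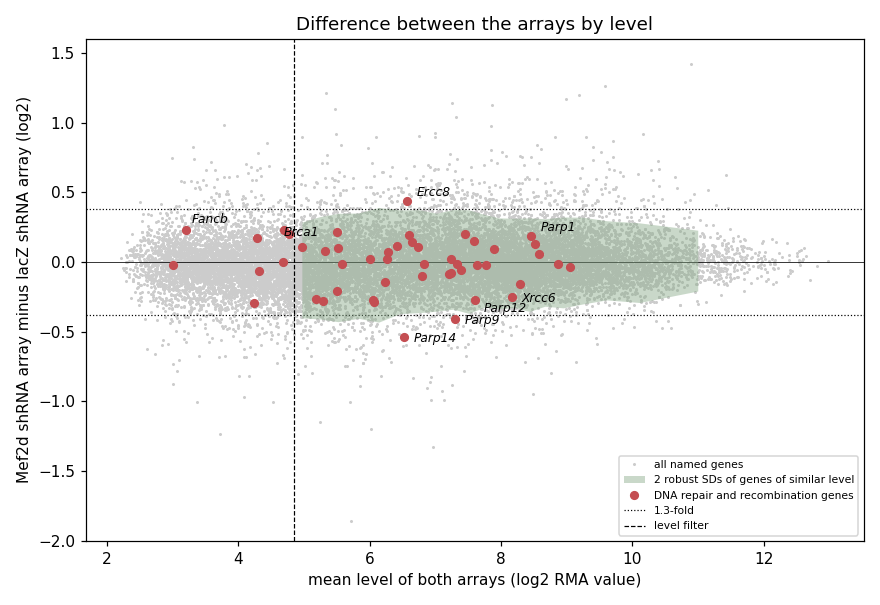
Difference between the arrays (log2) against the mean level of both arrays (log2 RMA value) for all named genes (grey) and the 49 repair genes (red), with a green band of 2 robust SDs around genes of similar level and dotted lines at 1.3-fold. Parp14 and Parp9 lie below the band and Ercc8 above it, while the other 38 repair genes past the level filter lie inside it.

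E2F factors drive many S-phase genes, and their sites (TTTGGCGC, TTTCCCGC, TTTCGCGC or TTTGCCGC, either strand) were found in 4 of the 44 repair gene promoters (9.09%). The share was 2.37% of all genes in the table and 3.33% of the named genes on the arrays. The 4 genes did not share a direction. Fancd2 (-0.27) and Fancc (-0.06) were below 0, and Rad51l3 (0.20) and Fancl (0.02) were above. The promoters of the lowest and the highest of them are shown with the match in capitals, Fancd2 from chr4:148234458-148234757 on the plus strand and Rad51l3 from chr10:68321853-68322152 on the minus strand (RefSeq, GRCr8).
Fancd2: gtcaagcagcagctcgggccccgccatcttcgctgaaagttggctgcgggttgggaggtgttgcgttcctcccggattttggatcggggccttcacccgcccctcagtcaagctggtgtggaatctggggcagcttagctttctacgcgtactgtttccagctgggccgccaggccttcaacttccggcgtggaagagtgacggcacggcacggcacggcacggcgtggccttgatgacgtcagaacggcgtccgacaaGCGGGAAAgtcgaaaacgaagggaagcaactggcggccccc
Rad51l3: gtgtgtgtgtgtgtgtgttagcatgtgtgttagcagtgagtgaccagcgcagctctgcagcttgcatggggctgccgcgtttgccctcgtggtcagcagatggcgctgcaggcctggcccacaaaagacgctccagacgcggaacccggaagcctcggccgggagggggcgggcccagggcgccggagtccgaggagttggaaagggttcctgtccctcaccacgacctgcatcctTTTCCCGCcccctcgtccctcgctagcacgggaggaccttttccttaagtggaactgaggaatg
The Fancd2 match starts at position 10, after the start site, and that of Rad51l3 at position -14. The cell cycle homology region (TTTGAA) was in 4 of 44 repair gene promoters (9.09%). It was in 19.4% of all genes in the table and 15.9% of the named genes on the arrays. A CCAAT box (CCAAT) was in 18 (40.9%, against 39.6% and 38.6%). The MEF2 consensus was in none of the 44, in 3.66% of all genes and in 2.67% of the named genes. Median GC content was 58.3% in the repair gene promoters and 52.3% in those of all genes. Its part in the motif shares was not tested. These windows cover 300 bases in all, so sites farther away were not searched.

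End joining genes were split between the Ku subunits. Xrcc6, which encodes the smaller Ku subunit, had levels of 8.29 and 8.04, a difference of -0.25, or -1.54 robust SDs of genes of similar level. Xrcc5, the larger subunit, was level at 7.23 and 7.25. Xrcc4, the partner of DNA ligase IV, was at 0.12. Rad50, the coiled coil arm of the MRN complex that tethers broken ends, differed by -0.02. The checkpoint genes of the naming rule past the filter were equally flat, with Rad17, the clamp loader, at -0.02 and the clamp subunit gene Rad1 at -0.01. Checkpoint genes outside the rule, given below, were more spread, from Rnf168 at -0.41 to Rnf8 at 0.50. Rad18, the ligase that marks the sliding clamp for translesion synthesis, was at -0.02.

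Nucleotide excision repair held the highest repair gene. Ercc8, or CSA, the substrate receptor of the ubiquitin ligase that acts on stalled RNA polymerase, had a level of 6.35 on the lacZ-labelled array and 6.79 on the Mef2d-labelled array. Its difference of 0.44 was 2.35 robust SDs above genes of similar level, and 275 of the 11614 genes, Ercc8 included, were at least as high. Ercc6, or CSB, which acts with CSA in transcription-coupled repair, was at 0.11. Ercc8 shares its promoter region with Ndufaf2, an assembly factor of respiratory complex I, whose start site lies 138 bases away on the other strand. Ndufaf2 had levels of 6.26 and 6.10, a difference of -0.16, so the pair did not differ in the same direction. The incision and unwinding genes were flat or slightly lower. Ercc1 was level at 8.87 and 8.86, and Ercc4, its partner in a structure-specific nuclease, was at -0.15. Ercc5, the other nuclease, was at -0.06, and Ercc3, a helicase of the transcription factor TFIIH, at -0.04. The median of the 6 Ercc genes was -0.02.

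Several other repair genes also sit head to head with a neighbour. In 11 pairs the annotated start sites lay within 1000 bases (GRCr8) and the partner was on the arrays, and 5 pairs had differences of the same sign while 6 had opposite signs. Fancd2 (-0.27) and Emc3, a membrane protein insertase subunit (-0.15), shared a sign, with start sites 113 bases apart. So did Xrcc6 (-0.25) and Desi1 (-0.05). Brca1 (0.11) and Nbr1, an autophagy receptor (-0.04), did not, nor did Xrcc4 (0.12) and Tmem167a (-0.13). The opposite pairs also included Rad51c with the dim Tex14 and the dim Rad9b with Vps29, whose signs carry little weight. The same holds for same-sign pairs whose repair gene lay near 0, Rad1 (-0.01) with Brix1 (-0.25) and Rad17 (-0.02) with Taf9 (-0.19). Rad1 was above 0 under every other scaling, from 0.001 to 0.024, so the sign of its pair is not settled. The share of same-sign pairs among all genes was not computed, so these counts have no background.

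Mismatch repair was represented by Msh3 and Mlh3. Msh3, which recognises larger loops, had levels of 5.40 and 5.62, a difference of 0.22. Mlh3, an endonuclease subunit, was at 0.07. A further 3 probe sets with older symbols carry the gene identifiers of genes that the rule would name under current symbols. Fancm, the translocase that anchors the Fanconi core complex, was at -0.21, Ercc6l2 at 0.04 and the dim Fancd2os at -0.12. This naming was added after the data were seen.

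The 8 repair genes under the level filter carry little weight, because a low RMA value cannot be told from background. They were Fancb, Fancc, Rad54b, Rad54l, Rad9b, Ercc6l and the meiotic genes Msh4 and Msh5. Their differences ran from -0.29 for Msh5 to 0.23 for Rad9b and Fancb, with Rad54b at 0.20 and Rad54l at 0.17. Msh4, needed for crossing over in germ cells, had levels of 3.01 and 2.99. Ercc6l, which encodes a DNA translocase of mitotic chromosomes and not an excision factor, had the same level of 4.67 on both arrays, as 57 of the 16592 named genes had identical values.

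The other genes of the repair pathways, outside the naming rule, were similarly spread. Of 92 such genes past the filter in 8 lists, 53 were below 0, the median was -0.03, and 4 were at least 1.3-fold lower and 4 higher. Over all 11614 genes 51.7% were below 0, 2.47% were at least 1.3-fold lower and 3.51% higher, so these counts are near the background. None passed 1.5-fold. At least 1.3-fold lower were 4 genes. Pcna, the sliding clamp, was at -0.51, Rpa1, the large subunit that coats bare strands, at -0.48, and Fen1, the flap nuclease, at -0.46. Rnf168, a ubiquitin ligase of damaged chromatin, was at -0.41. Above 1.3-fold were Tdp1, which removes trapped topoisomerase from DNA ends (0.54), Cetn2, a centrin of the lesion sensor XPC (0.50), Gtf2h1, a TFIIH subunit (0.44), and Rnf8, the ligase that acts upstream of RNF168 (0.50).

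By pathway, the recombination list had a median of -0.08 over 18 genes, 13 of them (72.2%) below 0, where the share over all named genes was 51.7%. After Rpa1 its lowest member was Rbbp8, the end resection factor CtIP, at -0.32, and its highest were Psmc3ip (0.21) and Mus81 (0.20). Among 5 Fanconi partners, Usp1, which removes ubiquitin from FANCD2, was at -0.31 and Ube2t, the conjugating enzyme for FANCD2, at -0.25. Wdr48, the cofactor of USP1, was at 0.20 and Dclre1b, a nuclease, at 0.15. The end joining list had a median of -0.07 over 9 genes, with the polymerase gene Polm (-0.22) and the nuclease gene Dclre1c (-0.21) lowest and Poll (0.24) and Aplf (0.22) highest. Base excision genes had a median of -0.01 over 21 genes. Beside Fen1 and Tdp1, Aptx, which removes abortive ligation products, was at -0.24 and Polb, the gap-filling polymerase, at 0.33.

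Excision, checkpoint and translesion lists showed the same mixture. The nucleotide excision list had a median of 0.03 over 14 genes, and its lowest members were Gtf2h3 (-0.16) and Ccnh (-0.15). In the mismatch list, which shares Pcna with replication, Pms2 was at -0.01 and Pms1 at 0.19. The checkpoint list had a median of -0.05 over 13 genes. Timeless, a fork protection factor, was at -0.34, and Hus1, the partner of RAD1 in the checkpoint clamp, at 0.32. The translesion and reversal list had a median of -0.04 over 9 genes, from the polymerase genes Poli (-0.30) and Polh (-0.24) to Alkbh3 (0.13) and Mad2l2 (0.25).

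**Figure D4:**
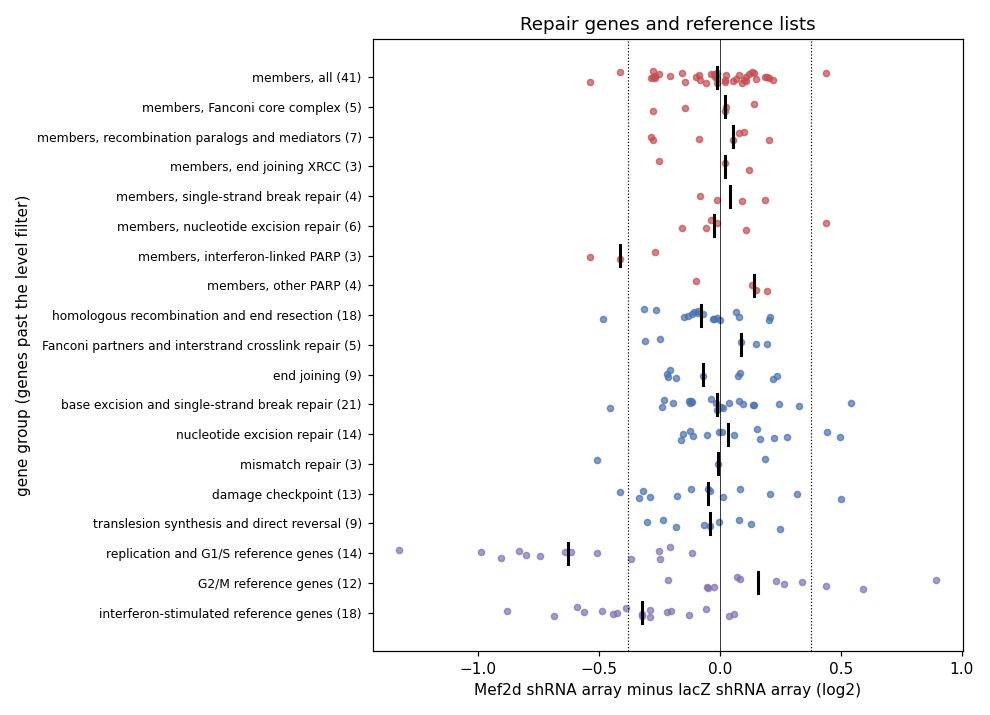
Difference between the arrays (log2) for each gene past the level filter, in the repair families with at least 3 such genes (red), other repair lists (blue) and reference lists (purple), with the number of genes in brackets, a black bar at each median and dotted lines at 1.3-fold. The repair medians lie between -0.08 and 0.14 except that of the 3 interferon-linked PARP genes (-0.41), while the replication list (-0.63) and the interferon list (-0.32) lie left of 0.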

How the data were processed

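The deposited table holds log2 values of 19239 probe sets on 2 one-colour Affymetrix arrays, which the authors made with RMA. The submitters' processing notes also list affy 1.36.1. Which step each tool did, and on which genome build and probe set definition, was not stated in the notes or labels used here. Array medians were 6.29 (lacZ shRNA) and 6.28 (Mef2d shRNA). RMA gives no detection call and compresses differences of dim probe sets. Symbols came from the platform annotation, which names 16592 probe sets, 1 each, and can be old. Every deposited value column was used.

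Differences were taken without further normalization in Python 3.11.15. Robust SDs were computed in 20 bins of level. The counting steps were tested on simulated data. The genes, their subgroups and all lists were chosen with earlier results of these data known. All 49 genes of the rule could be named, with full values for those past 1.3-fold, for Brca1 and for the extremes of each family, and each list gave its 2 largest differences in each direction where it held as many. Promoters came from the RefSeq table of GRCr8 by gene identifier, and a gene counted as holding a motif if any of its windows did. Alternatives covered scaling, level filter, thresholds and means. Some genes of these families are not reported here.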

Additional observations from a re-analysis of the deposited data

How the results depend on the processing

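The repair genes past 1.3-fold stayed 2 lower and 1 higher under 3 other scalings, without a level filter, at or above the median level, with names by gene identifier (added after the data were seen) and beyond 2 robust SDs, and became 0 and 0 at 2-fold. The median of all repair genes moved between -0.03 (mean in place of the median) and 0.00, and that of the interferon-linked PARP genes between -0.43 and -0.40. Among the scalings, 4 of the 49 genes changed sign, all with a difference under 0.1 in size, the largest being 0.019. Over all genes the median shifted by up to 0.012 between scalings, and Mef2d stayed between 0.71 and 0.73. Means in place of medians gave -0.048 for the Fanconi core complex, -0.031 for the recombination mediator group, -0.039 for the end joining Xrcc genes, 0.048 for the Ercc genes, -0.025 for the Fanconi partners, 0.087 for the nucleotide excision list and -0.11 for the mismatch list. The added names brought the Fanconi core complex to -0.062. The end joining list was at 0.076 at or above the median level (7 genes), and the mismatch list at -0.076 without a level filter (4 genes). These groups are small, and their medians near 0 have no settled sign, except that the nucleotide excision list stayed above 0 in every setting. No paired analysis was possible because a condition is 1 array, and for the same reason none was left out. Genes close to the level filter, such as Brca1, are limited by low signal.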
